A study of Mus musculus with 32 samples.

Results

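The 9 genes Six3, Six6, Rax, Lhx2, Emx1, Emx2, Otx1, Hesx1 and Fezf2 are regional transcription factors of the anterior neural plate. They were taken by gene symbol from the 55573 genes of the deposited tables, and all 9 were found in each of 32 libraries. The libraries are RNA-seq of mouse cells of strain 129S5/SvEvBrd with a tagged Smarce1; its product BAF57 belongs to the chromatin remodelling complexes called SWI/SNF or BAF. The tag is called MD, or MD with the substitution R42A. The labels do not spell out MD; it is read here, from general knowledge, as a mitotic degron taken from cyclin B1, which has a tagged protein degraded at mitotic exit, with R42A as an inactivating substitution. Both genotypes therefore carry a tagged Smarce1, and no untagged cells were analysed here. Embryonic stem cells (ESC) were grown with serum and LIF on gelatin. There were 4 R42A clones (A01, A02, A04, A10) and 4 MD clones (09, 30, 45, 47), with 3 libraries each. Neural cells had 6 days in a neural induction medium, which the labels name both RHB-A and RHA-B, and came from A04, A10, 09 and 30 with 2 libraries each. Each line is 1 clone, so the clone was taken as the replicate. Clones A04, A10, 09 and 30 belong to a first ESC library series and A01, A02, 45 and 47 to a second, as read from runs of library numbers. The neural libraries form a further run, so that stage and library run cannot be told apart.

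Six3, Six6, Rax and Lhx2 are homeodomain proteins of the eye field, the part of the anterior neural plate from which the optic vesicles grow. Six3 also holds back Wnt signalling in the forebrain, and Lhx2 is needed for the optic vesicle and for cortical identity. Emx1 and Emx2 pattern the dorsal telencephalon, Emx2 with a graded distribution across the cortex. Otx1 is a head and brain factor related to Otx2, Hesx1 is a repressor of the early anterior neural plate and pituitary that pluripotent cells also express, and Fezf2 is a zinc-finger factor of the early forebrain and, later, of deep-layer cortical neurons.

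The 250 bases before the RefSeq transcription start (GRCm38.p6) are shown for 4 members: Lhx2 and Emx1, which were higher in MD neural cells, Six3, which was higher in MD ESC, and Hesx1, the member that fell during neural culture. They are Lhx2 chr2:38339031-38339280 (+, the upstream of its starts in the table), Emx1 chr6:85187681-85187930 (+), Six3 chr17:85620584-85620833 (+) and Hesx1 chr14:27000112-27000361 (+). Capitals mark each match, on either strand, to TAATTA (a homeodomain core), TAATCC (an OTX-type site), ACAAAG (a SOX-type site), CCAAT (the CCAAT box), GGGCGG (the GC box) or TATAAA (the TATA box). Where matches overlap, the capitals run together.
Lhx2: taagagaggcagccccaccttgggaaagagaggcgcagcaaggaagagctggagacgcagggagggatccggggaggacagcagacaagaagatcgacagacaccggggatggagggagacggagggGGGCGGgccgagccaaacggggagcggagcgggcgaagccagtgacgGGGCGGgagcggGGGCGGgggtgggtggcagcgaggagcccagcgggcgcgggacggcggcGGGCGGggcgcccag
Emx1: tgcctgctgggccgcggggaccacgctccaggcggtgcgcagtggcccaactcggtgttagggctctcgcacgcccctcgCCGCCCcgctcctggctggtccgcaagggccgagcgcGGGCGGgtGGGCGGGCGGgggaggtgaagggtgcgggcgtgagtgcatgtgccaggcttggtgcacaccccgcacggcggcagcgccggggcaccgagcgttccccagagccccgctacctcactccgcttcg
Six3: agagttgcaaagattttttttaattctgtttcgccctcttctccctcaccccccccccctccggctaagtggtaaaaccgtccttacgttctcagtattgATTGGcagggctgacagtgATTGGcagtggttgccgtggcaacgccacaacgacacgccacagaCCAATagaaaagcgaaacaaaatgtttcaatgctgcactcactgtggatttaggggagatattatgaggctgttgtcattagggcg
Hesx1: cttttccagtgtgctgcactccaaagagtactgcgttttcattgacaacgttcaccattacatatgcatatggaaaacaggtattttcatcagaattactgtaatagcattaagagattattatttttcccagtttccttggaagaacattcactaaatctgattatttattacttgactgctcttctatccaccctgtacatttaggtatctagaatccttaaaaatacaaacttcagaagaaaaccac
The windows shown for Lhx2 and Emx1 each held 4 matches to GGGCGG and none to the other motifs. The window of a second Lhx2 start in the table, chr2:38351058-38351307 (+), held 0 matches to GGGCGG and none to the other motifs, with 24 CpG. That of Six3 held 3 matches to CCAAT only, and that of Hesx1 held none. GGGCGG was found in 32.7% of the 32851 promoter windows of the table, CCAAT in 33.8%, ACAAAG in 16.5%, TATAAA in 12.4%, TAATCC in 6.25% and TAATTA in 4.84%. The Lhx2 and Emx1 windows were rich in CpG, with 25 and 30 CpG dinucleotides, more than in 89.3% and 94.1% of windows. Hesx1 stood low, with 2 CpG and 34% G+C. The Six3 window had 10 CpG and 48.8% G+C, against a median of 6 CpG and 52.4% G+C over all windows. Windows of 7 members were found. The 3 not shown, those of Six6, Emx2 and Fezf2, had 17, 24 and 14 CpG. They held 1, 2 and 1 matches to GGGCGG, 2, 1 and 0 to CCAAT and none to the other motifs. Otx1 had no entry in the table and Rax was not searched.

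Total counts per library ran from 38699951 to 96424439. The stage labels were checked with marker genes. The 9 naive pluripotency markers summed to between 2614 and 5103 CPM (counts scaled to depth by edgeR's TMM library size) in ESC and to between 41.5 and 58.4 CPM in neural cells. The 12 neural progenitor markers summed to 282 to 561 CPM in ESC and to 1729 to 1867 CPM in neural cells. Smarce1 itself was at 109 ± 15.9 CPM in R42A and 116 ± 5.03 CPM in MD ESC (SD, n = 4 clones; log2 change 0.09 ± 0.09 (SE), edgeR adjusted p = 0.438), and at 229.7 ± 1.63 and 293 ± 6.11 CPM in neural cells (SD, n = 2 clones; 0.34 ± 0.10, adjusted p = 0.0293). The RNA level does not show whether the protein was removed. Genes on chromosome 11, where Smarce1 and Otx1 lie, were higher in MD as a whole. Their median log2 change was 0.45 in ESC and 0.48 in neural cells, against -0.04 and 0.00 over all genes tested. Genes on chromosome 8 were lower in MD as a whole, with medians of -0.455 in ESC and -0.277 in neural cells.

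During the 6 days in neural medium 7 of the 9 members rose in R42A cells, 1 fell and 1 did not pass the test. A member is called changed at an adjusted p under 0.05 in edgeR. Of all 23844 genes tested in that comparison, 37.9% were called higher and 40.4% lower. In MD cells 7 members likewise rose and 1 fell, where 40.3% of genes were called higher and 41.0% lower. Six3, Lhx2, Emx1, Emx2, Otx1 and Fezf2 rose and Hesx1 fell in both genotypes. Six6 rose in R42A alone by the test and Rax in MD alone, and the difference between genotypes is tested further on. The median log2 change of the members was 4.99 in R42A and 6.17 in MD, against -0.06 and -0.02 over all genes tested.

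**Figure D1:**
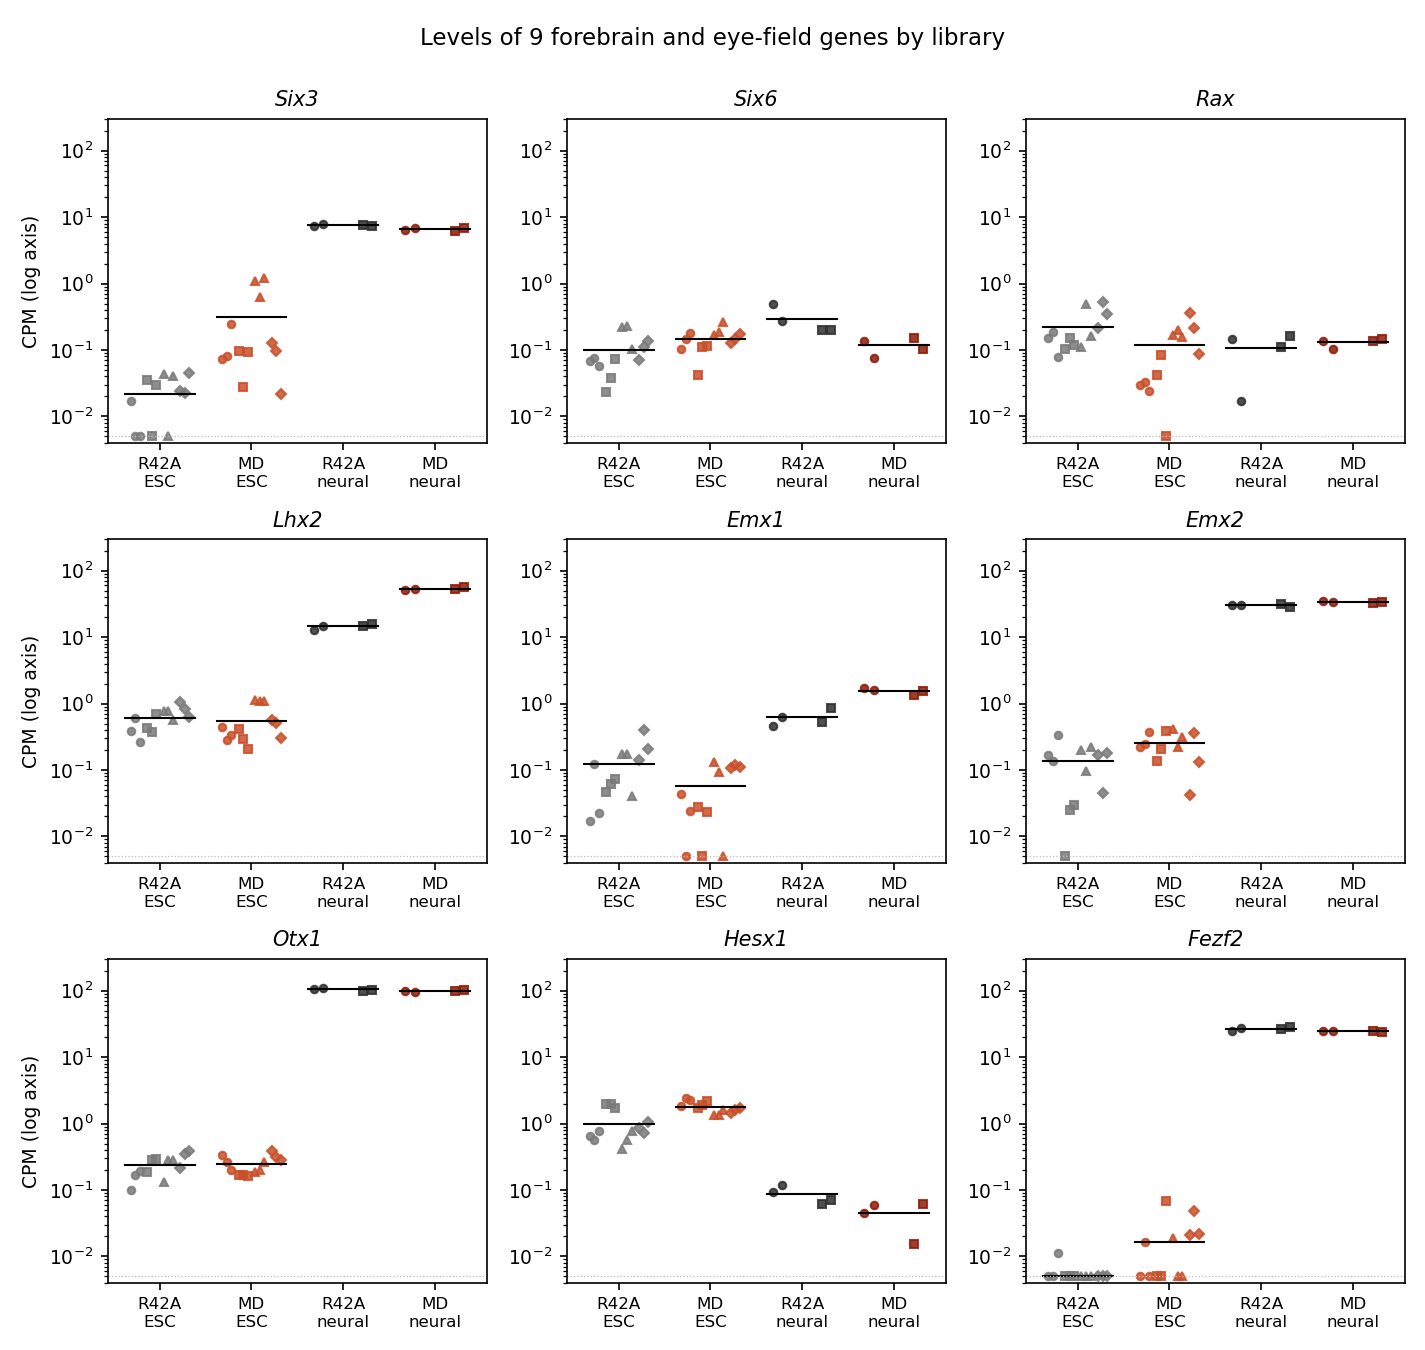
Levels of the 9 members in CPM (log axis) in 12 R42A ESC, 12 MD ESC, 4 R42A neural and 4 MD neural libraries. Points are libraries, with 1 symbol per clone within a group; lines are means over clones; libraries at 0 and lower means are drawn on the dotted line at 0.005 CPM. Otx1, Fezf2, Emx2, Lhx2, Six3 and Emx1 are higher in every neural library than in every ESC library, and Hesx1 is lower.

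The eye-field gene Six3 was close to the limit of detection in R42A ESC, with 14 counts over 12 libraries, 4 of them at 0 and the highest at 0.0456 CPM. In MD ESC it ran from 0.0220 to 1.21 CPM with a median of 0.0965 CPM, and 10 of 12 libraries lay above the highest R42A library. Clone 45 stood apart from the other MD clones, at 1.10, 0.623 and 1.21 CPM, where clone 09 had 0.0733, 0.0818 and 0.249 CPM. The log2 change of MD against R42A was 3.64 ± 0.84 (edgeR adjusted p = 0.0097), and 2.34 ± 0.56 without clone 45 (adjusted p = 0.0159). Within the first library series it was 3.0 ± 0.77 and within the second 4.14 ± 1.5, neither past the threshold in 2 clones against 2 (adjusted p = 0.0826 and 0.141). Its mean of 0.317 CPM in MD ESC was still far below that of neural cells.

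In neural cells Six3 reached 7.41 and 7.86 CPM in A04 and 7.48 and 7.44 CPM in A10. The MD libraries read 6.35 and 6.91 CPM in clone 09 and 6.16 and 6.75 CPM in clone 30, all below the R42A libraries. The share of all genes whose neural libraries lie apart like this was not computed, for Six3 or for the other members. The difference was small and did not pass the test (log2 change -0.21 ± 0.25, edgeR adjusted p = 0.555). It passed when the neural sums were fitted without the ESC (adjusted p = 0.00922). Most genes passed in that fit, with 6986 called higher and 6657 lower of 20285 tested. Neural cells exceeded ESC by 9.02 ± 0.43 on the log2 scale in R42A and by 5.84 ± 0.34 in MD. As a ratio of counts these were 564-fold (exact 95% interval 258 to 1538) and 59.7-fold (44.2 to 82.4), intervals that cover counting error only.

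Six3os1 is a long non-coding RNA transcribed from the opposite strand at the start of Six3, and it followed Six3 most closely of all genes. Its reads and those of Six3 overlap in position, and since the strand setting of the counting is not given in the sources used here, the 2 genes' counts are uncertain there. In ESC it was at 0.0793 ± 0.0392 CPM in R42A and 0.715 ± 1.01 CPM in MD (SD, n = 4 clones), with clone 45 at 1.56 to 2.68 CPM. This made a log2 change of 2.84 ± 0.85 (edgeR adjusted p = 0.0292), which was not called without clone A04, A10, 09, A01, A02 or 45. In neural cells Six3os1 was at 29.2 ± 0.860 CPM in R42A and 19.8 ± 0.525 CPM in MD (SD, n = 2 clones; log2 change -0.56 ± 0.22, adjusted p = 0.0878).

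Six6, the close relative of Six3 that acts later in the eye and pituitary, stayed low throughout. In ESC it had 65 counts over the R42A libraries and 96 over the MD libraries, with means of 0.100 ± 0.0610 and 0.146 ± 0.0475 CPM (SD, n = 4 clones; log2 change 0.64 ± 0.34, edgeR adjusted p = 0.169). In R42A neural cells it read 0.500 and 0.269 CPM in A04 and 0.202 and 0.197 CPM in A10. In MD neural cells it read 0.137 and 0.0745 CPM in clone 09 and 0.152 and 0.104 CPM in clone 30. These were 29 counts in all in the MD and 67 in the R42A neural libraries. The log2 change of -1.29 ± 0.46 did not pass the test with clones as replicates (adjusted p = 0.0692) and was -1.68 without A10. It passed with the neural sums fitted alone (adjusted p = 0.00285), a fit that most genes passed. With single libraries as replicates it also passed (adjusted p = 0.0106). That p treats libraries of the same clone as independent and does not measure the spread between clones. From ESC to neural cells Six6 rose in R42A by 2.37 ± 0.47 (adjusted p = 0.00254), where MD showed -0.03 ± 0.47 (adjusted p = 0.95). The neighbouring 4930447C04Rik overlaps its start on the opposite strand and went the other way, from 44.3 to 3.12 CPM in R42A. With the strand setting not given, the counts of Six6, which are far lower than those of this neighbour in ESC, are uncertain where they overlap.

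Rax, an early eye-field and hypothalamic factor, was low in both stages. It had 144 counts over 12 R42A ESC libraries and 71 over 12 MD ESC libraries. Raxos1, a non-coding RNA on the opposite strand, overlaps Rax, so that these counts too are uncertain there; it had 5 to 11 counts in each R42A ESC clone and 0 to 3 in each MD ESC clone. Levels were 0.220 ± 0.112 and 0.117 ± 0.0963 CPM (SD, n = 4 clones), and the ranges of the libraries overlapped. Clones 09 and 30 gave the lowest values, at 0 to 0.0831 CPM, whereas 45 and 47 lay between 0.0878 and 0.359 CPM, inside the R42A range. The log2 change was -1.12 ± 0.30 (edgeR adjusted p = 0.0188), with -1.71 ± 0.43 in the first series (adjusted p = 0.0804) and -0.64 ± 0.36 in the second (adjusted p = 0.247). The call was lost without clone 09, 30 or A02 (adjusted p = 0.0541, 0.0529 and 0.0562). In neural cells Rax was at 0.109 ± 0.0372 CPM in R42A and 0.131 ± 0.0145 CPM in MD (SD, n = 2 clones; log2 change 0.28 ± 0.41, adjusted p = 0.643). Against ESC of the same clones it showed -0.29 ± 0.39 in R42A and rose in MD by 1.71 ± 0.43 (adjusted p = 0.00792), from 15 counts in ESC to 32 in neural cells. Without clone 09 or 30 this rise was not called (adjusted p = 0.112 and 0.0604).

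Lhx2, a LIM-homeodomain factor of the eye field and cortex, showed the clearest difference between genotypes. The R42A neural libraries read 12.9 and 14.9 CPM in A04 and 14.6 and 15.6 CPM in A10. The MD libraries read 51.2 and 52.4 CPM in clone 09 and 52.8 and 56.2 CPM in clone 30. The groups were far apart, at 14.5 ± 0.869 and 53.1 ± 1.87 CPM (SD, n = 2 clones), a 3.66-fold difference (log2 change 1.87 ± 0.10, edgeR adjusted p = 9.21e-05). The call held without each of the 4 clones in turn, with log2 changes from 1.82 to 1.93. In ESC the same gene did not pass the test, at 0.611 ± 0.190 CPM in R42A and 0.554 ± 0.370 CPM in MD (SD, n = 4 clones; log2 change -0.19 ± 0.27, adjusted p = 0.63), with clone 45 again the highest MD clone, at 1.08 to 1.12 CPM. From ESC to neural cells Lhx2 rose by 4.99 ± 0.12 in R42A and by 7.24 ± 0.13 in MD. The non-coding Gm13584 and Gm27197 overlap Lhx2 on the opposite strand. With the strand setting not given, the counts of Lhx2 are uncertain there.

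Emx1, a marker of the dorsal telencephalon, was the other member higher in MD neural cells. Its R42A libraries read 0.463 and 0.621 CPM in A04 and 0.528 and 0.860 CPM in A10, and its MD libraries 1.70 and 1.62 CPM in clone 09 and 1.35 and 1.52 CPM in clone 30. No MD library overlapped the R42A libraries, a trait whose share over all genes was not computed. The log2 change was 1.32 ± 0.22 (edgeR adjusted p = 0.00413). Leaving out clone 09 or 30, which leaves 1 MD clone that is assumed to vary like the others, gave 1.2 and 1.43 with adjusted p of 0.0978 and 0.0673. In ESC the direction was the opposite: 0.123 ± 0.0901 CPM in R42A and 0.0564 ± 0.0451 CPM in MD (SD, n = 4 clones), with 77 and 35 counts over 12 libraries each and 3 MD libraries at 0. That log2 change of -1.17 ± 0.33 was called (adjusted p = 0.0235) but not without clone 09, 30, A02 or 45 (adjusted p from 0.0594 to 0.0971), nor by DESeq2 (adjusted p = 0.0717). Within the first series it was -1.43 ± 0.50 and within the second -0.95 ± 0.47 (adjusted p = 0.147 and 0.189). Emx1 rose from ESC to neural cells by 3.41 ± 0.27 in R42A and by 6.17 ± 0.31 in MD.

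Its paralog Emx2 did not differ by the test in either stage. In neural cells it read 30.6 and 30.7 CPM in A04, 31.8 and 28.8 CPM in A10, 34.6 and 34.1 CPM in clone 09 and 33.1 and 33.3 CPM in clone 30. The MD libraries were slightly higher (log2 change 0.14 ± 0.39, edgeR adjusted p = 0.816). This difference passed when the neural sums were fitted alone (0.15 ± 0.04, adjusted p = 0.00157), as most genes did in that fit. In ESC Emx2 ran from 0 to 0.338 CPM in R42A, with clone A10 at 0 to 0.0294 CPM. In MD ESC it ran from 0.0422 to 0.412 CPM (log2 change 0.89 ± 0.57, adjusted p = 0.254). With single libraries as replicates the change was 0.95 (adjusted p = 0.0406), a p that treats libraries of the same clone as independent. From ESC to neural cells Emx2 rose by 7.95 ± 0.58 in R42A and 6.98 ± 0.54 in MD. Emx2os, the non-coding RNA on the opposite strand, overlaps the start of Emx2, so that both genes' counts are uncertain there without the strand setting. It was listed at 0 in all 12 R42A ESC libraries and reached 2.88 CPM in R42A and 3.94 CPM in MD neural cells, where its log2 change was 0.45 ± 0.14 (adjusted p = 0.0553).

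Otx1 was the member with the highest level in neural cells. It read 107, 109.6, 98.6 and 104 CPM in the 4 R42A libraries and 97.3, 96.5, 100 and 104 CPM in the 4 MD libraries, ranges that overlap (log2 change -0.08 ± 0.14, edgeR adjusted p = 0.7). When each chromosome was scaled to its own level, which removes the general rise of chromosome 11 in MD, Otx1 was called lower in MD neural cells (-0.52 ± 0.12, adjusted p = 0.0167). In ESC it was at 0.240 ± 0.0677 CPM in R42A and 0.244 ± 0.0692 CPM in MD (SD, n = 4 clones; log2 change -0.01 ± 0.27, adjusted p = 0.99), or -0.46 ± 0.26 relative to its chromosome (adjusted p = 0.203). The increase from ESC to neural cells was 8.94 ± 0.21 in R42A and 8.78 ± 0.21 in MD.

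Fezf2 was at or near 0 in ESC. A single count was found over the 12 R42A libraries, 11 of which were at 0, where 3 counts would have been 0.0338 to 0.0711 CPM per library, and 9 counts over the 12 MD libraries. It was too low for the test between ESC genotypes. In neural cells it read 24.3 and 27.4 CPM in A04, 26.7 and 28.8 CPM in A10, 24.6 and 25.1 CPM in clone 09 and 24.9 and 23.7 CPM in clone 30. These ranges overlapped, and the log2 change of -0.13 ± 0.13 did not pass (edgeR adjusted p = 0.504). With the neural sums alone it was -0.12 and passed (adjusted p = 0.0194), as most genes did in that fit. Against the ESC of the same clones the ratio of counts was 12029-fold in R42A, with an exact 95% interval of 2158 to 475189, and 2477-fold in MD (967 to 9095). The intervals, which cover counting error only, overlap. A fitted log2 change of a gene with 1 count in a group depends on the prior count and is not used as a size.

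Hesx1 was the member that moved the other way. In ESC it was the highest member per length, at 0.801 CPM per kb of exon in R42A and 1.43 CPM per kb in MD, with no overlap with the next member, Lhx2. Its R42A ESC libraries fell into a low set, A04, A01 and A02 at 0.417 to 1.05 CPM, and clone A10 at 1.69 to 1.99 CPM. The MD libraries ran from 1.35 to 2.45 CPM, all above the low set and overlapping with A10. The log2 change of 0.83 ± 0.30 missed the threshold (edgeR adjusted p = 0.0592) and was 1.3 ± 0.21 without A10 (adjusted p = 0.000761). It was 0.70 ± 0.51 within the first series (adjusted p = 0.429) and 1.05 ± 0.29 within the second (adjusted p = 0.0338), and it was called by DESeq2 (adjusted p = 0.0232) and limma voom (adjusted p = 0.0419). In neural cells Hesx1 fell to 20 counts in all in R42A and 11 in MD, or 0.0860 ± 0.0269 and 0.0457 ± 0.00976 CPM (SD, n = 2 clones; log2 change -0.94 ± 0.83, adjusted p = 0.43). The fall from ESC was -3.94 ± 0.58 in R42A (adjusted p = 0.000551) and -5.56 ± 0.64 in MD (adjusted p = 0.000127).

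**Figure D2:**
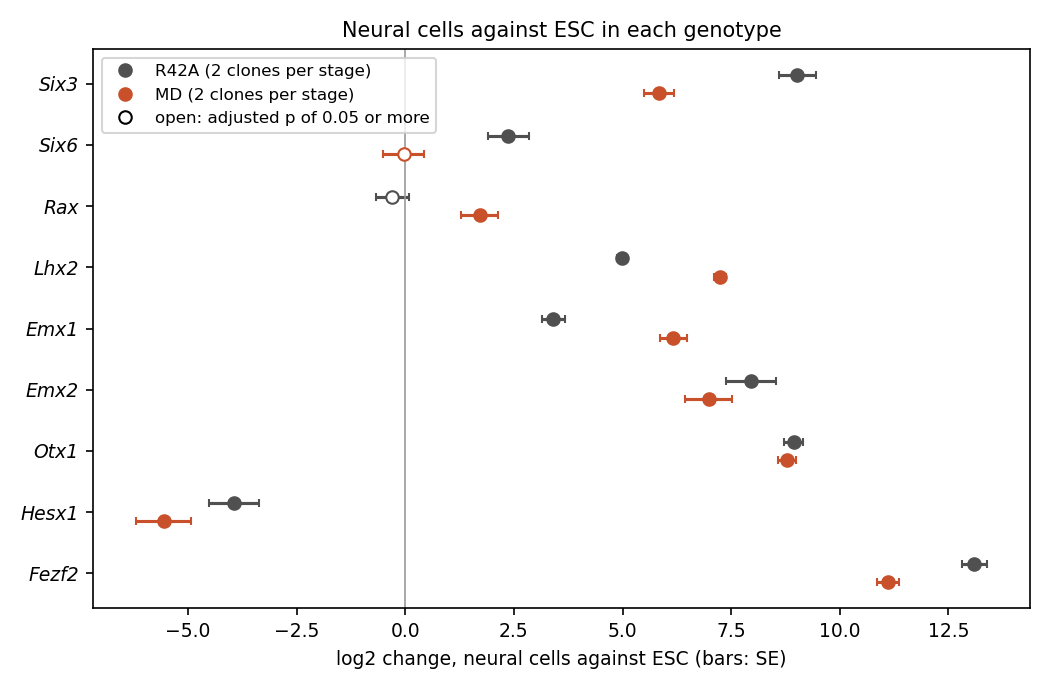
Log2 change of neural cells against ESC for each member in R42A (grey) and MD (orange) cells, from clones A04, A10, 09 and 30; bars are SE and open circles have an adjusted p of 0.05 or more. Hesx1 is negative in both genotypes, and Six6 in MD (-0.03) and Rax in R42A (-0.29) are the open circles.

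Counted over the members, MD ESC had 1 member higher than R42A (Six3), 2 lower (Rax and Emx1) and 5 not called, of 8 tested. Of all 21567 genes tested in ESC, 17.1% were called higher and 19.4% lower. In neural cells 2 of 9 members were higher (Lhx2 and Emx1), 0 lower and 7 not called, where 17.4% of genes were called higher and 16.3% lower. At an unadjusted p under 0.05, 2 members were higher and 2 lower in ESC, and 2 were higher and 1 lower, Six6, in neural cells. Of all genes tested, 10010 of 21567 in ESC and 10435 of 23844 in neural cells had such a p. DESeq2 called 2 higher and 1 lower in ESC, and 2 higher and 0 lower in neural cells. Without clone 09, 30 or A02 1 member was called in ESC, and without clone 09 or 30 1 member, Lhx2, in neural cells. The shares of members called are near those of all genes. The median log2 change of the members was 0.32 in ESC and -0.08 in neural cells, against -0.04 and 0.00 over all genes.

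**Figure D3:**
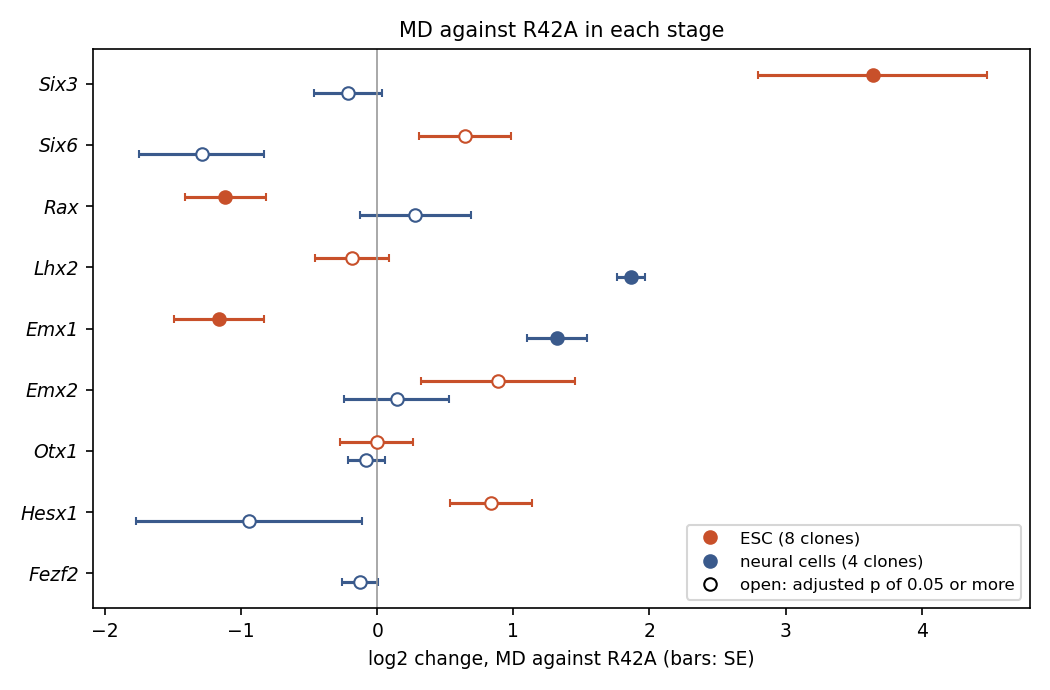
Log2 change of MD against R42A for each member in ESC (orange, 8 clones; Fezf2 was too low for the test) and in neural cells (blue, 4 clones); bars are SE and open circles have an adjusted p of 0.05 or more. Lhx2 in neural cells (1.87) has a narrow error and Six3 in ESC (3.64) a wide one, and Emx1 has called changes of opposite sign in ESC (-1.17) and neural cells (1.32).

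The difference of the MD effect between the stages was tested directly in clones A04, A10, 09 and 30. It was called for 5 of the 9 members, 3 with a more positive effect in neural cells and 2 with a more negative one, where 11.9% and 11.1% of the 23844 genes tested were called in these directions. The 2 comparisons of MD with R42A do not share libraries, but their clones are the same lines. Lhx2 gave 2.25 ± 0.17 (edgeR adjusted p = 0.000486), Emx1 2.76 ± 0.44 (adjusted p = 0.00552) and Rax 2.0 ± 0.58 (adjusted p = 0.047). Six3 gave -3.19 ± 0.62 (adjusted p = 0.0118) and Six6 -2.40 ± 0.67 (adjusted p = 0.0408). With the clone as a block, which is the paired form of this test, Rax and Six6 were no longer called (2.03 ± 0.65, adjusted p = 0.0881, and -2.36 ± 0.61, adjusted p = 0.0517). Lhx2, Emx1 and Six3 were still called in that fit (adjusted p = 0.00284, 0.0181 and 0.0289). Leaving out clone 09 or clone 30 left 0 of the 9 called, with Lhx2 nearest at adjusted p of 0.0555 and 0.0626, and only 77 and 114 genes called in the whole table against 5472. Without A04 Rax lost the call (adjusted p = 0.107) and Emx2 gained it (-3.71, adjusted p = 4.86e-05). Without A10 Hesx1 gained it (-2.87, adjusted p = 0.00337).

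Per length of transcript, the members fell into a clear order in neural cells. In R42A it ran from Otx1 at 19.3 CPM per kb through Emx2 at 10.1, Fezf2 at 8.80, Lhx2 at 3.30 and Six3 at 1.39 to Emx1 at 0.283 CPM per kb, with no overlap between neighbours. Six6 and Hesx1 followed at 0.0728 and 0.0689 CPM per kb and overlapped, and Rax was last at 0.0186 CPM per kb. In MD cells Lhx2 stood second at 12.1 CPM per kb, above Emx2 at 11.3 and Fezf2 at 8.07 CPM per kb. Lhx2 made up 7.61% of the members' summed level per kb in R42A neural cells and 23.4% in MD. In ESC only Hesx1 stood clear of the next member, with 69.5% of that sum in R42A and 78.1% in MD, and the levels of all others overlapped with their neighbours in the order.

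**Figure D4:**
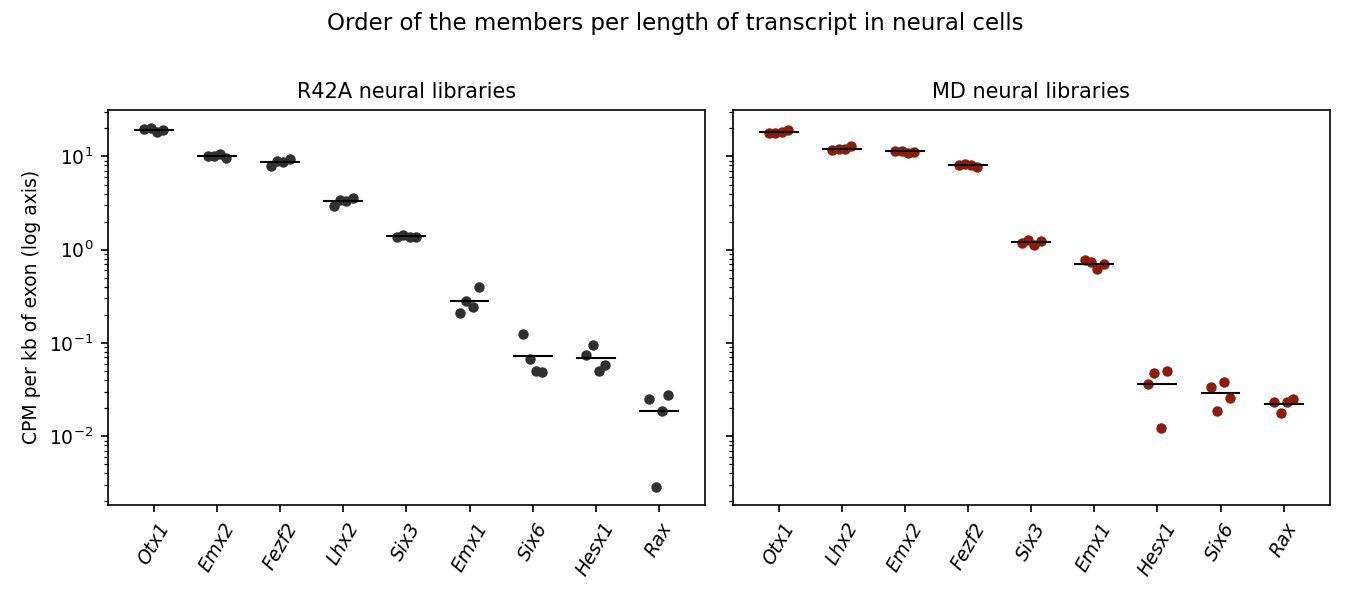
Levels of the members in CPM per kb of exon (log axis) in the 4 R42A and the 4 MD neural libraries, each panel in its own order; points are libraries and lines are means over clones. Lhx2 lies below Fezf2 in R42A, at 3.30 CPM per kb, and above Emx2 in MD, at 12.1 CPM per kb.

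The genes most like each member were taken by the correlation (Pearson's r) of log2(CPM + 0.5) over the 12 clone sums, in which the gap between ESC and neural sums weighs most. For Six3 they were Six3os1, Crb2 and the non-coding Gm48898 (r = 0.999, 0.998 and 0.998). For Lhx2 they were Cyp26b1, which breaks down retinoic acid, the synapsin gene Syn3, and Pcdhb13 (0.997, 0.997 and 0.996). Emx1 was nearest to D930028M14Rik, Asic4 and Robo3, an axon guidance receptor (0.992, 0.991 and 0.990), and Emx2 to Slc39a6, Slc2a13 and Rmst (0.999 each). Otx1 and Fezf2 both had Fezf1, the paralog of Fezf2, as the nearest gene (r rounds to 1.00), followed by Fam181a and Fezf2 itself for Otx1, and by Gm14342 and Gm32061 for Fezf2. Hesx1 was nearest to Prss38, Obox6 and Fat2 (0.994, 0.994 and 0.990). Six6 had no gene as close, with Smco4, Fzd7 and Lor at 0.866, 0.849 and 0.826, and Rax was nearest to Cbx6, Dlgap3 and Zbtb7a (0.960, 0.953 and 0.95).

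Other forebrain and eye genes give the setting of the members. Of 24 such factors, 22 rose from ESC to neural cells in R42A and 23 in MD, and 1 fell in each. Of all genes tested, 37.9% were called higher and 40.4% lower in R42A, and 40.3% and 41.0% in MD. Between genotypes, 17.4% were called higher and 16.3% lower in MD neural cells, and 17.1% and 19.4% in MD ESC. The counts of this list and of each list below are to be read beside these shares. In MD neural cells 10 of the 24 were higher than in R42A and 2 lower, with a median log2 change of 0.41 against 0.00 over all genes. Among those with the smallest adjusted p were Lhx9, a LIM-homeodomain paralog of Lhx2, at 31.5 ± 0.810 CPM in MD against 8.44 ± 0.0466 CPM in R42A (SD, n = 2 clones; log2 change 1.89 ± 0.11, edgeR adjusted p = 0.00011), and the cortical neuron factor Tbr1 at 14.6 against 3.99 CPM (1.87 ± 0.15, adjusted p = 0.000285). Lower were Otx2, the head organiser and forebrain factor, at 95.7 against 156 CPM (-0.71 ± 0.11, adjusted p = 0.00327), and Vax1 at 0.193 against 0.841 CPM (-2.10 ± 0.45, adjusted p = 0.0147). The median of the 24 was 0.42 without clone 09 and 0.38 without clone 30, fits that leave 1 MD clone. Fewer genes of this list and of the whole table were called in such fits. This bears on the counts given above for this list and below for other lists. In ESC 4 of the 19 tested were higher in MD, among them Tbx2, Zic2 and Otx2 (0.96, 0.82 and 0.67), and 4 lower, among them Mitf, Vax2 and Foxd1 (-1.21, -3.37 and -1.40). Tbx2 lies on chromosome 11 and was not called relative to its chromosome (0.50, adjusted p = 0.0864).

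**Figure D5:**
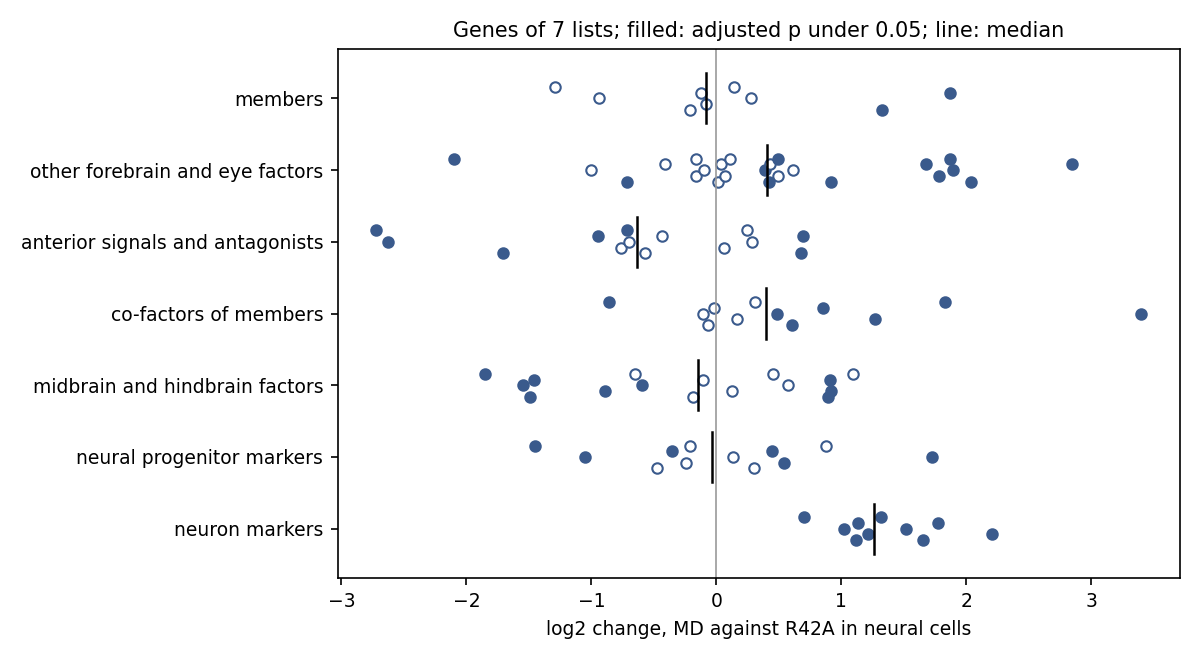
Log2 change of MD against R42A in neural cells for the members and the genes of 6 other lists; each point is a gene, filled where the adjusted p was under 0.05, and vertical lines are medians. All 10 neuron markers lie right of 0 and are filled, and the members spread on both sides with Lhx2 and Emx1 filled.

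The signals, antagonists and related genes that shape the anterior neural plate were mixed. In MD neural cells 2 of 14 were higher and 5 lower, or 3 higher and 4 lower relative to each chromosome. Sfrp1, on chromosome 8, was among the lower and was not called relative to its chromosome (-0.39, edgeR adjusted p = 0.0923). Sfrp2, a Wnt antagonist, was at 309 ± 9.02 CPM against 191 ± 2.44 CPM (SD, n = 2 clones; log2 change 0.70 ± 0.07, edgeR adjusted p = 0.000715), and Cyp26a1 at 6.67 against 4.21 CPM. Fgf8 and Fgf17, ligands of the anterior neural ridge and of the midbrain-hindbrain boundary, were lower, at 2.94 against 9.54 CPM (-1.71 ± 0.20) and 0.308 against 1.90 CPM (-2.63 ± 0.29), as was Sfrp5 (-2.72 ± 0.29). In ESC 5 of 12 were higher, of which Cyp26a1, Lefty1 and Fgf8 had the smallest adjusted p (log2 changes 1.44, 0.88 and 1.60), and 2 lower, Sfrp1 (-1.88 ± 0.15, adjusted p = 5.94e-05) and Shisa2 (-0.46; not called relative to its chromosome, adjusted p = 0.0754). Without clone A04 or A02, 3 were called higher and 1 lower.

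Among 12 co-factors, known to bind members, their families or their partners, 6 were higher and 1 lower in MD neural cells. Lmo1, a LIM-only protein that competes with LIM-homeodomain factors for Ldb proteins, was at 21.2 ± 0.365 CPM against 5.97 ± 0.153 CPM (SD, n = 2 clones; log2 change 1.83 ± 0.12, edgeR adjusted p = 0.000154). Ldb2, the partner of LIM domains, was at 2.78 against 0.264 CPM (3.40 ± 0.58), and the Groucho-type corepressor Tle1 at 105 against 75.1 CPM (0.48 ± 0.05). Tle2 was the lower one (-0.86 ± 0.17). Without clone 30, 3 were called higher and 0 lower. In ESC 3 of 11 were higher, Ldb2 (6.23 ± 0.86), Tle1 (0.35) and Dach1 (2.65 ± 0.78), and 2 lower, Aes (-0.94 ± 0.06) and Ldb1 (-0.21 ± 0.06; adjusted p = 0.0608 relative to its chromosome). Without clone 09 or A01, 2 were called higher and 1 lower. Ldb2 had only 15 counts over 12 R42A ESC libraries (0.0195 CPM), so the size of its log2 change is uncertain. Its MD ESC libraries ran from 0.359 to 4.95 CPM, all above the highest R42A ESC library at 0.0663 CPM. Dach1 was at 0.652 ± 0.788 CPM in MD ESC and 0.0862 ± 0.0266 CPM in R42A ESC (SD over clones). Its MD clones thus varied widely, and the ranges of the libraries overlapped.

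Factors of the midbrain and hindbrain pattern the neighbouring regions. Of 16, 3 were higher and 6 lower in MD neural cells, and their summed level was 257 to 271 CPM in MD against 413 to 469 CPM in R42A. The boundary factors Pax5 (45.3 ± 0.872 against 127 ± 8.84 CPM, SD, n = 2 clones; log2 change -1.49 ± 0.10, edgeR adjusted p = 0.000172), Pax8 (-1.46 ± 0.23) and En2 (50.7 against 148 CPM, -1.55 ± 0.30) were lower, and Lmx1b and Hoxa2 were among those higher (0.90 and 0.91). Without clone 09 or without clone 30, 0 were called higher and 1 lower. The members themselves summed to 216 to 226 CPM in MD and 180.1 to 191 CPM in R42A neural cells.

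Markers of other cell types moved with the genotype as well. All 10 neuron markers were higher in MD neural cells, with a summed level of 2075 to 2162 CPM against 736 to 844 CPM and none at 0. Those with the smallest adjusted p were Nefl, Elavl4 and Elavl3 (log2 changes 1.65, 1.77 and 1.13), and Dcx, named after its value was seen, had a larger change (2.21 ± 0.18). Relative to each chromosome 9 of the 10 were called, the exception being Rbfox3 on chromosome 11, and 6 of the 10 without clone 09 or without clone 30. Lhx2, Emx1 and Tbr1 were higher in the same libraries, and the part of a changed share of neurons in these differences was not tested. In bulk RNA fewer cells of a type and less RNA per cell cannot be told apart. Of the 12 neural progenitor markers 3 were higher and 3 lower, with Nes among the lower (-1.05 ± 0.16). Over all genes, 17.4% were called higher and 16.3% lower. Of 6 neural crest markers 4 were higher and 0 lower, with sums of 124 to 137 CPM against 89.8 to 98.2 CPM. Their median log2 change was 0.60. It was 0.59 without clone 09 and 0.61 without clone 30, fits that leave 1 MD clone and did not keep the calls. Endoderm markers summed to 53.9 to 69.0 CPM in MD and 91.8 to 119 CPM in R42A neural cells, with 1 of 5 called lower, and mesoderm markers to 12.9 to 16.5 and 19.4 to 23.3 CPM, with 2 of 6 lower. Without A04 or A10, 4 and 5 endoderm markers were called lower, and without clone 09 or 30 no endoderm or mesoderm marker was called.

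Markers of other states and cell types were also called between the ESC genotypes. Over all genes tested in ESC, 17.1% were called higher in MD and 19.4% lower. All 5 formative markers were higher in MD, with sums of 349 to 605 CPM against 166 to 218 CPM, and 6 of the 9 naive markers were lower and 1 higher, with sums of 2614 to 3998 against 3307 to 5103 CPM (4 lower and 2 higher relative to each chromosome). All 6 genes tested from the surface ectoderm and placode list were higher, with sums of 244 to 490.4 CPM against 94.2 to 153 CPM. Among them were Grhl2 and Epcam (log2 changes 1.76 and 0.90). Grhl2 and Epcam were also expressed in R42A ESC, at 16.2 and 61.2 CPM, and fell in neural cells of both genotypes. Their rise does not by itself show surface ectoderm. The part of the formative, naive and surface ectoderm lists in the change of Six3 was not tested. Of the 11 neural progenitor markers tested in ESC, 3 were higher and 1 lower: Nes was higher (1.71 ± 0.22) and Sox1, on chromosome 8, lower in MD (-1.41 ± 0.39; -0.92 and not called relative to its chromosome, adjusted p = 0.082). Without clone 09 the counts were 1 higher and 0 lower, and without A01 2 higher and 0 lower. Of 6 mesoderm markers 2 were higher, of 5 trophectoderm markers 3, and of 4 endoderm markers 0 were called in either direction (1 higher without A10).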

How the data were processed

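RNA-seq libraries of 32 mouse samples, prepared with TRIzol and a KAPA Hyper Prep kit (labels' protocols), were analysed as 1 table per library. The authors deposited expected counts for each gene, without normalisation. RSEM 1.3.0, STAR 2.7.1a, Trim Galore 0.60, DESeq2 (version not named) and mm10 are listed, per the submitters' processing notes. The annotation release and the strand setting of the counting are not given in the sources used here. Expected counts were rounded and summed over the libraries of a clone; between 1.46% and 1.7% of values per library were not whole (tolerance 1e-06), and 92 spike-in rows, all at 0, were left out. Of 55573 genes, 55394 were placed by identifier on the GENCODE M21 annotation of mm10, which also gave exon lengths.

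Tests were edgeR 4.0.16 quasi-likelihood F-tests (R 4.3.3; robust, TMM, filterByExpr with a minimum count of 10, Benjamini-Hochberg adjustment over all genes tested, threshold 0.05). The ESC fit took 8 clone sums and a term for library series. The other comparisons came from 1 fit of 4 groups on the 8 sums of A04, A10, 09 and 30. The errors of log2 changes are standard errors. Nothing says that libraries of a clone were separate cultures, so p-values measure the spread between clone sums, which may be partly technical. Levels are CPM, averaged over the libraries of a clone, with the SD over clones. The scripts were tested on simulated data.

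The members and all gene lists were chosen with earlier results of these data known. From each list the called genes with the smallest adjusted p were named, at most 3 per direction and comparison, and for each member the 3 genes most like it. Some genes that this rule names are not reported here. ESC and neural sums of a clone label come from the same line and were treated as paired in an alternative fit; their deviations correlated at -0.079 for the R42A clones and 0.0248 for the MD clones. The other alternatives were DESeq2 1.42.0, limma voom 3.58.1, RLE scaling, no filter, single libraries, scaling by chromosome, single series, the neural sums alone and leaving out each clone. Promoter sequences are from RefSeq, build GRCm38.p6.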

Additional observations from a re-analysis of the deposited data

Results flagged for a closer look

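Clone 45 gave the highest Six3 level of the 4 MD ESC clones, 0.979 CPM, far from the other 3 clones. One R42A neural library, the second of clone A04, gave a Six3 level of 7.86 CPM, apart from the other 3 libraries, which lay between 7.41 and 7.48 CPM. For Fezf2 in R42A ESC, clone A04 had 0.00376 CPM, which is 1 count, and the other 3 clones were at 0. These are 3 of 36 sets of values tested for a sample outside the rest, a test that flags about 5% of sets by chance.

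The effect of MD in neural cells less that in ESC, on the log2 scale, was 2.25 for Lhx2, 2.76 for Emx1 and 2.0 for Rax, and -3.19 for Six3 and -2.40 for Six6. These are the 5 members for which the test of the difference between stages passed. Emx1 was called in both stages with opposite signs, and Six3, Rax and Lhx2 in 1 stage each, while Six6 was called in neither.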

How the results depend on the processing

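Of 558 values of single members under other settings, 486 kept their direction and side of the threshold, 36 lost the call, 19 gained one and 17 changed sign. The counts of members called in ESC (3) became 1 without the series term, 0 in the first series alone and 1 in the second, and 1 to 4 without single clones. The counts of all genes called there (7862) became 3084, 1769 and 4878 under the first 3 of these. In neural cells the members called (2) became 6, and the genes called (8030) became 13643, with the neural sums fitted alone, and 1 to 3 members and 1538 to 9967 genes without single clones. The members called in the difference between stages (5) became 3 by DESeq2, 3 under the clone as a replicate block, and 0 to 6 without single clones, where the genes called (5472) ran from 77 to 8759. No sign change concerned a called value. They were Lhx2 in ESC in the second series alone (0.044). Otx1 in ESC gave 0.008 with RLE scaling, 0.008 by DESeq2, 0.044 with single libraries, 0.067 with these and the replicate block, 0.091 in the first series alone, and -0.167 to 0.179 without single clones. Without single clones Rax ran from -0.033 to 0.708 in neural cells and from -0.752 to 0.052 between stages in R42A, and Otx1 from -0.604 to 0.257 in the difference. Six6 between stages in MD gave 0.014 with limma voom, 0.136 with single libraries and the replicate block, and -0.513 to 0.558 without single clones. The cause of these changes was not tested. Whether replicate numbers shared by MD and R42A libraries mark a pairing was not settled. Deviations of same-numbered libraries correlated at 0.009, -0.346 and 0.59 in the first ESC series. They correlated at 0.000846, 0.476 and 0.407 in the second and at 0.167 in neural cells. The block on these numbers called 2 members in ESC and 3 in neural cells, against 2 and 3 with single libraries and no block. The clone block changed no other member's call than those of Rax and Six6. DESeq2 gave no adjusted p for Rax in the difference. No scaling moved the split of higher and lower calls by over 10 percentage points. The counts for lists under other scalings and without single clones were computed after the data were seen. Rax, Six6, Emx1 and, in ESC, Six3 and Fezf2 rest on few counts, so that differences in these are limited by depth.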
